A study of Mus musculus and Mus musculus musculus x Mus musculus castaneus with 52 samples.

Results

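A set of 6 genes used as markers of the early neural lineage were followed through a series of mouse pluripotent stem cells: Sox1, Pax6, Olig2, Nes, Ncan and Tubb3. They were chosen by symbol, and all 6 of 6 had a row among the 16687 genes of the RNA table. Each gene was read in 24 libraries. Embryonic stem cells (ESCs) were deprived of LIF, the cytokine that keeps mouse ESCs undifferentiated in serum, and read at 24 h and at 0 h. That withdrawal experiment held 2 independent female clones labelled Dusp9+/- (heterozygous for the X-linked phosphatase gene Dusp9), the wild-type (WT) XX line F121 and the WT XY line V6.5, each with 1 library per time. These ESCs were kept in serum and LIF without feeder cells. Induced pluripotent stem cells (iPSCs) were 3 female lines (LV20, LV21 and LV22), called XO at passage 13 (P13) and XX at passage 7 (P7), and 3 male lines (LV4, LV8 and LV16), called XY at both passages. Further ESCs were the WT XX lines CM1 and CM2 and the WT XY lines CM3 and CM7 at passage 5 (P5). The iPSC lines and V6.5 are labelled Mus musculus, whereas F121, the Dusp9+/- clones and the CM lines come from musculus and castaneus crosses. The line is the unit of replication, and p-values rest on the spread between lines or clones that is left within the groups of each fit. For Dusp9+/- against F121 that spread comes from the 2 clones alone.

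In the embryo part of the ectoderm becomes the neural plate. Sox1 is an HMG-box transcription factor and one of the earliest genes of the plate, and Pax6, a paired-box and homeobox factor, follows it in forebrain, eye and spinal cord progenitors. Olig2 is a basic helix-loop-helix factor of motor neuron and oligodendrocyte progenitors. Nes encodes nestin, an intermediate filament of neural progenitors that other dividing cells also make. Ncan encodes neurocan, a chondroitin sulfate proteoglycan of the brain matrix, and Tubb3 encodes the beta-tubulin isotype typical of neurons. Mouse ESCs released from LIF pass through a formative state before they take up a lineage.

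The 3 transcription factors are shown by the 250 bases before their RefSeq start site (GRCm38.p6, plus strand), read 5′ to 3′, because each is a regulator that carries a main contrast below (time, line and passage) and their CG content differs. CG dinucleotides, the sites of DNA methylation in mammals, are in capitals. The first of the Pax6 start sites is shown. The windows are chr8:12395269-12395518 for Sox1, chr16:91225300-91225549 for Olig2 and chr2:105668646-105668895 for Pax6.
Sox1: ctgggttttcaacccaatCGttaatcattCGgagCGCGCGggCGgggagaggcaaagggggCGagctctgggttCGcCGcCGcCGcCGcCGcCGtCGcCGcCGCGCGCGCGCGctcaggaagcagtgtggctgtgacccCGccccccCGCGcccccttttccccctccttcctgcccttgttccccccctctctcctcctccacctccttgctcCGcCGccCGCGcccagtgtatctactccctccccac
Olig2: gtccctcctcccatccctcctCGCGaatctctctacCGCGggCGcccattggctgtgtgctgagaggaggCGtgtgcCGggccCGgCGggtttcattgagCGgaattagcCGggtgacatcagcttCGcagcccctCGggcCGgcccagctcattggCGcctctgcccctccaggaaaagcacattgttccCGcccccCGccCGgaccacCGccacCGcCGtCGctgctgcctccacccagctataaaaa
Pax6: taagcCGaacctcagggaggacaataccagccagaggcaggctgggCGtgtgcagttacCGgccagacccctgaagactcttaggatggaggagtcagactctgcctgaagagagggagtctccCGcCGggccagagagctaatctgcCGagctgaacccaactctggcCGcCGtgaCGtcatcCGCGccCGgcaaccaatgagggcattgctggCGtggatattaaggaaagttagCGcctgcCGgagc
The Sox1 window held 29 CG, the Olig2 window 22 and the Pax6 window 15, and the median over 32851 RefSeq promoters of the same length was 6 (quartiles 2 and 16). Of all promoters 93.2% had fewer CG than Sox1, 85.2% fewer than Olig2 and 72.7% fewer than Pax6. The windows of Tubb3 and Nes held 21 and 15 CG, and that of Ncan 6. The letters TATAAA, searched on both strands, occurred in the windows of Olig2 and Ncan and in 12.4% of all promoters. CATTGT, letters that SOX factors bind, occurred on either strand in the windows of Olig2 and Tubb3 and in 10.7% of all promoters. A match is a description of the letters only.

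The libraries held 8309171 to 14245900 reads. Levels are log2 CPM, that is reads scaled to an effective library size, which differed somewhat from the read total, on a log2 axis, and a gene without reads stands at -2.45. Differences come from limma as log2 fold change ± SE (standard error). A gene is called when its two-sided p, adjusted by Benjamini-Hochberg over every gene tested, is under 0.05. Overlap of groups is a description, and the share of all genes without overlap was computed for the organism label alone. Because a floor of 0.183 CPM is part of each value, a fold change understates the change of a low gene. Dusp9 itself was at 7.71 and 6.58 log2 CPM in clones 1 and 2 against 7.84 in F121 at 24 h, and at 5.96 and 7.43 against 6.93 at 0 h, and which region was mutated is not given in the labels. The library labelled LV21 at P7 (XX) stood nearer to the XY lines than the other XX lines did. Its Dusp9 was at 6.16, beside 7.50 in LV20 and 7.20 in LV22, against 5.87 to 6.04 in the XY lines at P7. Its Xist, the RNA that silences an X chromosome, was at 1.66, beside 3.72 in LV20 and 4.33 in LV22, against -2.45 to -0.94 in the XY lines. Comparisons of XX at P7 are therefore given for the called members with and without LV21. The median gene of chromosome 8, which carries Sox1, Ncan and Tubb3, stood above the median of the other autosomes by 0.57 (24 h) and 0.50 (0 h) log2 in V6.5 and by 0.55 (P13) and 0.48 (P7) in LV21, against 0.00 to 0.22 in the other 20 libraries. Results on these genes are therefore also given without those lines. The label of pluripotent cells was checked with 12 naive pluripotency genes, none of which was at 0 reads throughout a group. Their summed level was 1078 to 1418 CPM at 24 h without LIF, against 2163 to 4757 CPM in the other libraries. In bulk RNA fewer cells of a type and less RNA per cell cannot be told apart.

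**Figure D1:**
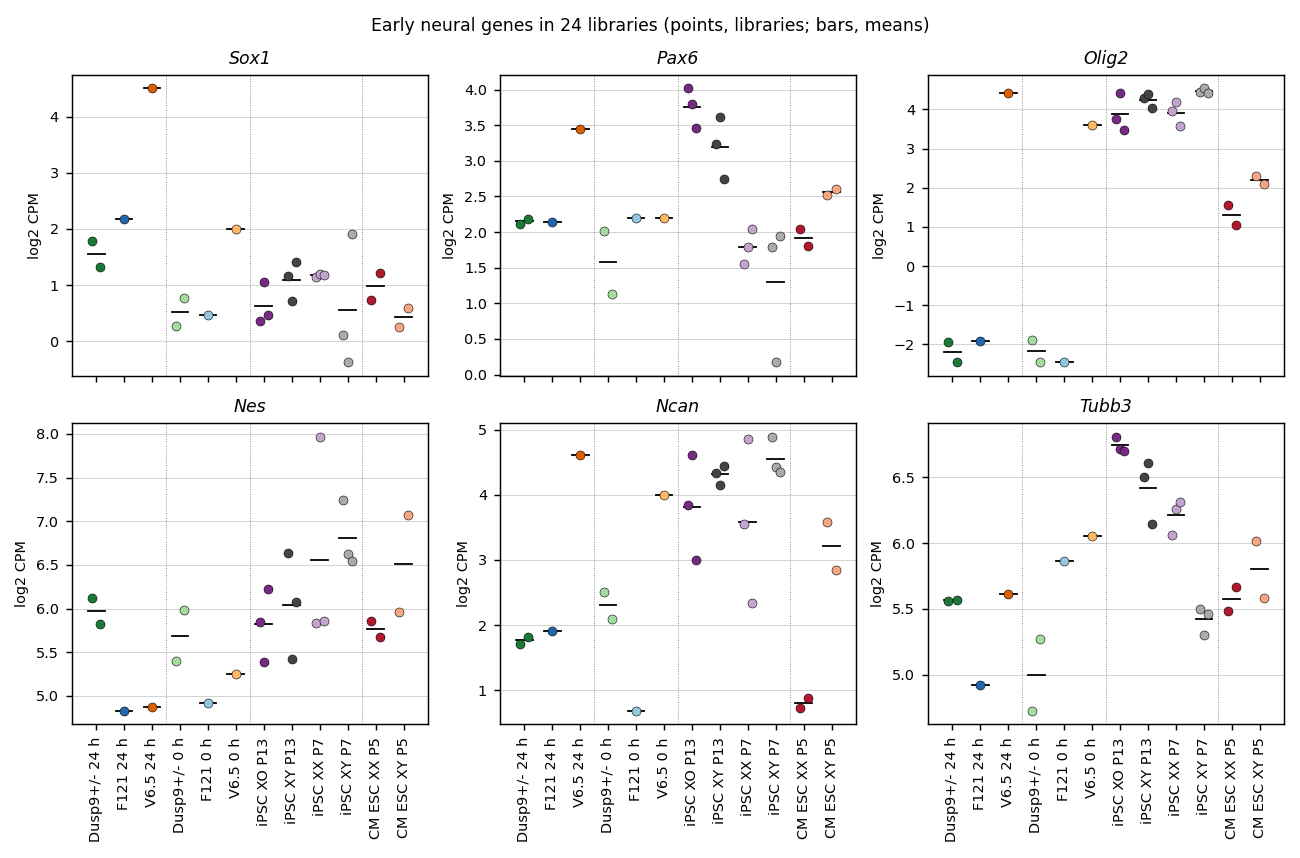
Each panel plots 1 gene in log2 CPM (y axis) for 24 libraries (points) grouped by line or genotype, time and passage (x axis), with bars for group means. V6.5 at 24 h is the highest Sox1 library (4.50), Pax6 and Tubb3 are higher at P13 than at P7 in the iPSC lines, and Olig2 lies at or near the floor of -2.45 in F121 and the Dusp9+/- clones.

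Sox1 was the only member called after LIF withdrawal. It stood at 1.78 and 1.32 log2 CPM in Dusp9+/- clones 1 and 2, at 2.17 in F121 and at 4.50 in V6.5 at 24 h, against 0.28, 0.77, 0.47 and 2.00 in the same lines at 0 h. Each line was higher at 24 h than at 0 h, but the groups overlapped because V6.5 at 0 h was above both clones at 24 h. The mean was 2.44 ± 1.42 at 24 h and 0.88 ± 0.77 at 0 h (SD, n = 4 each). Of 6 members 1 was called, where 32.7% of 14335 tested genes were, so members were not called more often than other genes. In the limma fit Sox1 rose 2.96-fold (1.56 ± 0.29, adjusted p = 0.00648). The call was kept under all 12 alternatives (1.25 to 1.90, highest adjusted p = 0.0362). Without V6.5 the change was 1.25 (adjusted p = 0.0196), and relative to the median gene of chromosome 8 it was 1.53 (adjusted p = 0.00595).

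The reads behind Sox1 show how its increase varied between lines. V6.5 had 247 reads at 24 h against 38 at 0 h, a CPM ratio of 5.91 (95% exact counting interval 4.19 to 8.55). In F121 there were 51 reads at 24 h and 16 at 0 h, a ratio of 3.60 (2.02 to 6.76). Clone 1 had 41 and 12 reads (ratio 3.15, 1.62 to 6.58) and clone 2 had 27 and 19 (ratio 1.52, 0.814 to 2.89), at 24 h and 0 h. Thus the interval of clone 2 alone included no change, and those of V6.5 and clone 2 did not meet. These intervals cover counting error in single libraries only. The clone numbers may not match between the times, since the deviations of same-numbered clones were negatively correlated (r = -0.36 across genes). With the numbers crossed the Sox1 changes of the clones were 1.01 and 1.04 log2.

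**Figure D2:**
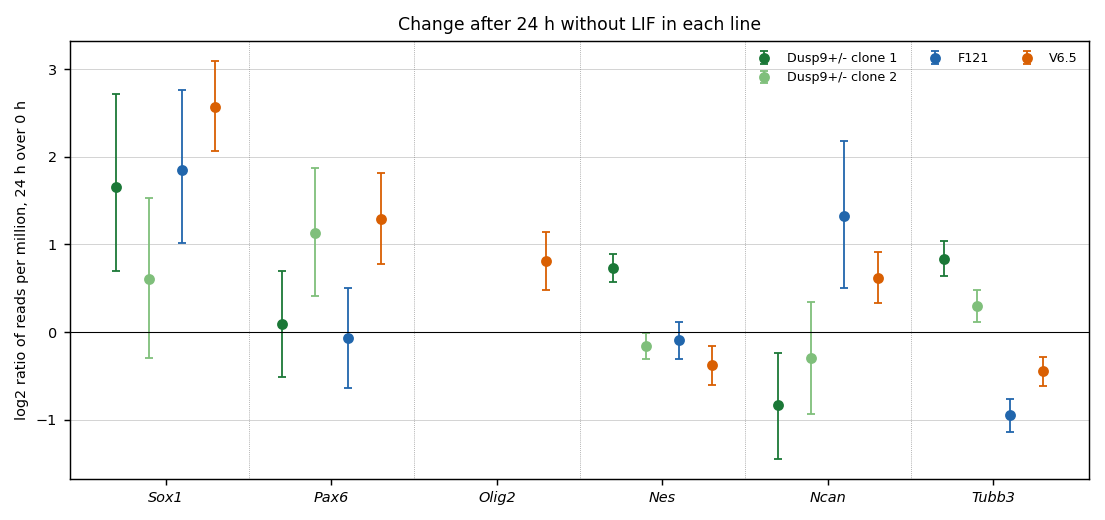
The log2 ratio of CPM at 24 h over 0 h (y axis) is plotted for each gene (x axis) in Dusp9+/- clones 1 and 2, F121 and V6.5, with bars for 95% counting intervals and no point where a library held under 4 reads. Sox1 lies above 0 in every line, whereas Ncan and Tubb3 lie on opposite sides of 0 in the clones and in F121.

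The other 5 members gave no call at 24 h. Pax6 was at 2.11 and 2.19 in clones 1 and 2, at 2.14 in F121 and at 3.45 in V6.5 at 24 h, against 2.02, 1.13, 2.20 and 2.20 at 0 h. V6.5 (118 reads against 44) and clone 2 (51 against 25) were higher at 24 h, and the changes in F121 and clone 1 were -0.06 and 0.09. The fitted Pax6 difference was 0.58 ± 0.27 (adjusted p = 0.13). Olig2 was readable in V6.5 alone, with 231 reads at 24 h against 120 at 0 h, a ratio of 1.75 (1.40 to 2.20). In F121 and the clones it had 0 or 1 read at either time. The fitted changes of Nes (0.02 ± 0.17, adjusted p = 0.924) and Ncan (0.19 ± 0.31, adjusted p = 0.671) were close to 0. Both averaged over lines that moved in opposite directions. Nes changed by 0.72 and -0.16 in clones 1 and 2, by -0.09 in F121 and by -0.38 in V6.5. Ncan changed by -0.80 and -0.28 in clones 1 and 2, by 1.22 in F121 and by 0.61 in V6.5. Tubb3 (-0.06 ± 0.26, adjusted p = 0.873) was likewise not called, with 2 of 4 lines higher at 24 h.

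Among other neural genes the change at 24 h went in both directions. Of 8 tested neural plate and progenitor transcription factors 1 rose and 2 fell (18 of the 30 listed were in the table). Sox3, the X-linked SOXB1 relative of Sox1, rose 3.14-fold (1.65 ± 0.21, adjusted p = 0.00157). Zfp521, a zinc-finger factor that drives ESCs to neural fate, fell by 1.26 ± 0.26 (adjusted p = 0.00923), and Sox21, a SOXB2 factor, by 0.81 ± 0.20 (adjusted p = 0.018). The list median was 0.21, beside 0.02 for all genes. Of 17 tested proneural and neuronal genes 6 rose, among them the zinc-finger factor Insm1 (1.88 ± 0.41) and the filament genes Nefl (0.97 ± 0.12) and Ina (0.79 ± 0.13). In the same list 3 fell, among them the microtubule-binding gene Mapt (-1.29 ± 0.24). Of 16 progenitor structural and matrix genes 5 fell, such as Tnc (-1.60 ± 0.30), the matrix protein tenascin, and Ncam1 (-1.02 ± 0.14), a cell adhesion molecule, and Ptprz1, a receptor phosphatase, rose (0.72 ± 0.19). The medians of these 2 lists were -0.07 and -0.13.

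State and cell type markers moved at the same time. Of 12 naive pluripotency genes 11 fell, such as Tbx3 (-3.08 ± 0.28), and of 12 formative genes 9 rose and 1 fell, with Fgf5 at 2.75 ± 0.54. The formative sum was 2137 to 3081 CPM at 24 h, against 796 to 1326 CPM at 0 h. Of 16 tested fibroblast and feeder genes 9 fell. Their summed level at 24 h was 174 to 348 CPM in the clones, 445 in F121 and 400 in V6.5, against 166 to 335, 1112 and 1194 CPM at 0 h. Lum was at 0 reads in V6.5 at 24 h, and Fap in both clones at 24 h. Of 6 neural crest genes 1 rose and 1 fell, and of 3 mesendoderm genes 1 fell. The part of these changes in the Sox1 result was not tested.

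The comparison of Dusp9+/- with F121 sets the clones labelled heterozygous for Dusp9 against 1 WT XX line. They also differed in Xist, which was at 7.45 and 7.86 in clones 1 and 2 against 4.24 in F121 at 0 h. At 24 h Xist was at 8.16 and 8.11 against 6.41. The part of that difference in the results below was not tested. At 0 h Ncan was higher in both clones, with 2.51 (64 reads) in clone 1 and 2.10 (51 reads) in clone 2, against 0.69 (19 reads) in F121. Ncan was 3.07-fold higher (1.62 ± 0.27, adjusted p = 0.0288) and was the 1 member called, where 8.91% of 14335 genes were. The F121 group is a single library that is assumed to vary like the clones, and the call was lost with no filter on low values (adjusted p = 0.0556). At 24 h Ncan was at 1.71 and 1.82 in the clones and at 1.90 in F121 (-0.14 ± 0.27, adjusted p = 0.79). No member was called at 24 h, where 2.55% of genes were. In the 3 neural lists at 24 h 1 gene was called, the zinc-finger gene Zic5 (-0.83 ± 0.14, adjusted p = 0.046), and no fibroblast gene of 16 was.

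Tubb3 and Nes also stood apart from F121 in the clones without passing the test. Tubb3 at 0 h was at 4.72 and 5.27 in the clones, against 5.86 in F121 (-0.86 ± 0.23, adjusted p = 0.069). It passed with libraries centred on their medians (-0.92, adjusted p = 0.0493) and relative to chromosome 8 (-0.84, adjusted p = 0.0467). Leaving out a clone at 0 h sets 1 clone library against 1 F121 library, and both are then assumed to vary like the clones at 24 h, the only spread left in the fit. Under that assumption the Tubb3 difference was -0.59 (adjusted p = 0.0409) without clone 1 and -1.14 (adjusted p = 0.0189) without clone 2. At 24 h it was at 5.56 and 5.57 in the clones, against 4.92 in F121 (0.65 ± 0.23, adjusted p = 0.159). Nes was at 6.13 and 5.83 in the clones at 24 h, against 4.83 in F121 (1.15 ± 0.26, adjusted p = 0.075), and at 5.40 and 5.98 at 0 h, against 4.92 (0.77 ± 0.26, adjusted p = 0.112). Without clone 1 at 0 h the Nes difference was 1.06 (adjusted p = 0.0295), again with the spread of the 24 h clones alone.

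The change over 24 h in the clones minus that in F121 was then tested itself. It was -1.75 ± 0.38 for Ncan (adjusted p = 0.234) and 1.51 ± 0.32 for Tubb3 (adjusted p = 0.233), with opposite signs of change in F121 and in both clones. In F121 Ncan had 42 reads at 24 h and 19 at 0 h, a ratio of 2.49 (1.42 to 4.54), and Tubb3 had 355 and 773 reads, a ratio of 0.518 (0.456 to 0.588). Limma called 0 of 14335 genes in this comparison (0%), with 1766 at an unadjusted p under 0.05, and voom on recovered reads also called 0. Without clone 2 at 0 h the Tubb3 difference was 1.78 (adjusted p = 0.0484), where the clones at 24 h were the only group with more than 1 library and gave the spread for the rest.

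At 0 h markers of other states also differed between the clones and F121. Formative genes were higher in the clones in 6 of 12 cases and lower in 2 (median 0.997). Naive pluripotency genes were lower in 4 of 12 cases and none was higher (median -0.44). Of 16 fibroblast and feeder genes 7 were lower in the clones, with Postn at -4.77 ± 0.68. Of 16 progenitor structural and matrix genes 3 were higher and 3 lower, among them Hapln4 (1.72 ± 0.32), a linker of the brain matrix to which Ncan also belongs, the stem cell glycoprotein gene Prom1 (1.39 ± 0.21), the growth factor gene Ptn (-3.23 ± 0.28) and Tnc (-3.14 ± 0.50). None of 8 neural transcription factors was called. Of the neuronal genes 1 was higher and 3 lower, with Dpysl3 at -1.54 ± 0.27. The structural, transcription factor and neuronal lists had medians of -0.11, -0.10 and -0.03, beside -0.01 for all genes. The part of all these genes in the Ncan result was not tested.

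Pax6 and Tubb3 were higher at P13 than at P7. In the female lines passage and the change of label between XX and XO cannot be told apart. In the female lines Pax6 stood at 4.02, 3.79 and 3.45 log2 CPM in LV20, LV21 and LV22 at P13, against 1.55, 1.80 and 2.04 at P7. In the male lines it was at 3.23, 3.61 and 2.74 in LV4, LV8 and LV16 at P13, against 1.79, 0.18 and 1.94 at P7. All 6 lines were higher at P13 and the passages did not overlap within either sex. The share of all genes with such a pattern was not computed. Pax6 rose 3.89-fold in the female lines (1.96 ± 0.41, adjusted p = 0.0144) and 3.72-fold in the male lines (1.89 ± 0.41, adjusted p = 0.0102). These were 2 separate tests on 3 lines against the same 3 lines each, and called genes were 9% of 13978 in the female lines and 13% in the male lines. Without LV21 at P7 the female difference in Pax6 was 1.96 (adjusted p = 0.0126). The female call was lost without LV20 at P7 (1.84, adjusted p = 0.0639) or at P13 (1.83, adjusted p = 0.06), and the male call without LV4 at P13 (1.87, adjusted p = 0.0505) or LV8 at P13 (1.68, adjusted p = 0.0517). With the line as a block, each line having been read at both passages, the adjusted p was 0.0239 in the female and 0.0201 in the male lines.

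The fold of Pax6 varied with the line, and the cause was not tested. At P13 LV8 held 116 reads, against 8 at P7, a CPM ratio of 12.7 (6.25 to 30.2), and LV20 had 159 against 27, a ratio of 5.84 (3.86 to 9.13). LV16 gave the smallest ratio, 1.78 (1.21 to 2.65), from 92 reads against 40. Its counting interval met neither that of LV8 nor that of LV20. As for Sox1, these intervals cover counting error in single libraries only. Without LV8 at P7 the male difference was 1.33 (adjusted p = 0.0382).

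Tubb3 moved with Pax6 but by less. It was at 6.81, 6.72 and 6.70 in LV20, LV21 and LV22 at P13, against 6.06, 6.26 and 6.32 at P7, and at 6.5, 6.61 and 6.15 in LV4, LV8 and LV16 at P13, against 5.50, 5.30 and 5.46 at P7. Every line was higher at P13, and the passages did not overlap within either sex, a pattern whose share over all genes was not computed. Tubb3 rose 1.45-fold in the female lines (0.53 ± 0.12, adjusted p = 0.0205) and 2.00-fold in the male lines (1.00 ± 0.12, adjusted p = 0.00107). The female call was lost without LV20 at P7 (0.45, adjusted p = 0.0952) or at P13 (0.50, adjusted p = 0.077), and relative to the median gene of chromosome 8 (0.44, adjusted p = 0.0906). It was kept without LV21 at P7 (0.56, adjusted p = 0.0165) or at P13 (0.54, adjusted p = 0.037). The male call held under all 15 alternatives (0.91 to 1.14, highest adjusted p = 0.00989). The female change minus the male change was -0.47 ± 0.17 (adjusted p = 0.485), and 0.07 ± 0.58 for Pax6 (adjusted p = 0.982). Limma called 0 genes in that comparison (0%), with 1242 at an unadjusted p under 0.05. It called 145 without LV21 at P7, and 11 with the line as a block, and no member in either.

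**Figure D3:**
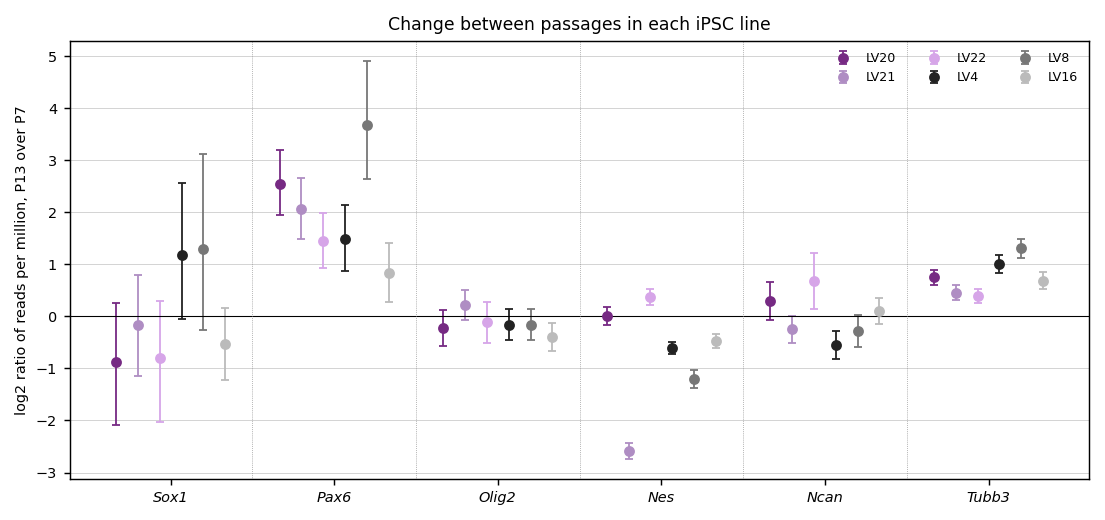
The log2 ratio of CPM at P13 over P7 (y axis) is plotted for each gene (x axis) in the female lines LV20, LV21 and LV22 and the male lines LV4, LV8 and LV16, with 95% counting intervals. Pax6 and Tubb3 lie above 0 in all 6 lines, and Nes in LV21 lies lowest of all points.

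The other 4 members were not called with passage in either sex. For Nes, LV21 gave 440 reads (P13) against 2352 (P7), a CPM ratio of 0.166 (0.150 to 0.184), while LV20 had 569 against 559. The Nes difference was -0.73 ± 0.46 in the female lines (adjusted p = 0.333) and -0.76 ± 0.46 in the male lines (adjusted p = 0.289). Sox1 was lower at P13 in all 3 female lines (-0.55 ± 0.52, adjusted p = 0.538) and higher in 2 of 3 male lines (0.54 ± 0.52, adjusted p = 0.519), on 5 to 39 reads per library. Olig2 differed by -0.03 ± 0.23 in the female lines (adjusted p = 0.947) and -0.24 ± 0.23 in the male lines (adjusted p = 0.53). Ncan differed by 0.23 ± 0.49 (adjusted p = 0.807) and -0.24 ± 0.49 (adjusted p = 0.784). With LV21 (P7) and LV22 (P13), which stood apart in an earlier analysis of these data, both left out, the female Ncan difference was 1.28 (adjusted p = 0.0317).

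Other neural genes changed with passage in part. Ina, an intermediate filament gene of neurons, rose in the female lines (0.86 ± 0.22, adjusted p = 0.0304) and in the male lines (0.99 ± 0.22, adjusted p = 0.0124). Tnc rose 2.61-fold in the female and 4.81-fold in the male lines, and Ptn, a heparin-binding growth factor, 3.30-fold and 3.87-fold. Msi1, an RNA-binding protein of neural stem cells, fell by 0.79 ± 0.20 in the female and 0.97 ± 0.20 in the male lines. Prom1 fell by 1.12 ± 0.33 in the female and 1.49 ± 0.33 in the male lines, and Elavl3, a neuronal RNA-binding protein, by 0.99 ± 0.21 in the male lines. In all, 3 of 17 neuronal genes rose and 2 fell in the female lines, and 1 rose and 2 fell in the male lines. Of 17 progenitor structural and matrix genes 2 rose and 3 fell in the female lines, and 4 rose and 2 fell in the male lines. None of 8 neural transcription factors was called in either sex, with list medians of -0.16 and 0.21. Medians of the neuronal list were -0.09 and 0.09, and of the structural list -0.22 and -0.54, beside 0.00 for all genes in each sex.

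Fibroblast and feeder markers rose with passage beside Pax6 and Tubb3. Of 17 tested genes 8 rose in the female lines and 12 in the male lines, and none fell. Their summed level was 733 to 1489 CPM at P13 against 383 to 576 CPM at P7 in the female lines, and 741 to 1955 CPM against 388 to 428 CPM in the male lines. Col3a1 rose 4.29-fold and 5.04-fold in the female and male lines. Of 7 neural crest genes 4 rose in the male lines, among them Foxd3 (2.41 ± 0.42), and none was called in the female lines. No gene of either list was at 0 reads in all libraries of a group. The part of these markers in the Pax6 and Tubb3 results was not tested.

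XX was compared with XY in the iPSC lines at P7, with LV21 kept under its label. The number of X chromosomes and the sex of the lines cannot be told apart in this comparison. Tubb3 was at 6.06, 6.26 and 6.32 in LV20, LV21 and LV22 (XX), against 5.50, 5.30 and 5.46 in LV4, LV8 and LV16 (XY), and the groups did not overlap. It was 1.73-fold higher in XX (0.79 ± 0.12, adjusted p = 0.00563), the 1 member called, where 4.78% of 13978 genes were. The call held under all 14 alternatives (0.71 to 0.87, highest adjusted p = 0.0476), being 0.77 without LV21 (adjusted p = 0.00244) and 0.71 relative to chromosome 8 (adjusted p = 0.0235). This comparison shares its P7 libraries with the passage comparisons above. Olig2 was lower in XX without overlap, at 3.96, 4.20 and 3.58 against 4.45, 4.54 and 4.43, but did not pass (-0.56 ± 0.23, adjusted p = 0.175).

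Ncan and Nes in that comparison turned on LV21. Ncan was at 3.55, 4.86 and 2.33 in LV20, LV21 and LV22, against 4.89, 4.42 and 4.35 in LV4, LV8 and LV16 (-0.97 ± 0.49, adjusted p = 0.268). Without LV21 it was -1.61 (adjusted p = 0.0158). Nes was at 5.83, 7.97 and 5.85, against 7.25, 6.63 and 6.54 (-0.26 ± 0.46, adjusted p = 0.794), and without LV21 at -0.96 (adjusted p = 0.0448). With LV21 (P7) and LV22 (P13) both left out, Olig2 also passed (-0.71, adjusted p = 0.0493). Sox1 (0.63 ± 0.52, adjusted p = 0.518) and Pax6 (0.50 ± 0.41, adjusted p = 0.52) were not called.

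At P13 the XO lines were compared with the XY lines. No member was called, where 0.0286% of 13978 genes were called by limma and 376 had an unadjusted p under 0.05. Tubb3 was at 6.81, 6.72 and 6.70 in XO, against 6.5, 6.61 and 6.15 in XY, without overlap (0.32 ± 0.12, adjusted p = 0.999). Pax6 (0.56 ± 0.41) was higher in XO and Ncan (-0.50 ± 0.49), Olig2 (-0.36 ± 0.23), Sox1 (-0.47 ± 0.52) and Nes (-0.23 ± 0.46) lower, each within overlapping groups and with adjusted p = 0.999.

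At P7 each of the 3 neural lists held called genes, where 4.78% of all genes were called. Of these, En2, a midbrain and hindbrain homeobox gene, was 3.20-fold higher in XX (1.68 ± 0.39, adjusted p = 0.0295), 1 of 8 transcription factors tested. The neurofilament gene Nefm (3.37 ± 0.78, adjusted p = 0.0281) and the X-linked synaptic gene Syn1 (1.23 ± 0.22, adjusted p = 0.0105) were higher and Elavl3 (-1.05 ± 0.21, adjusted p = 0.014) lower among 17 neuronal genes. Prom1 was lower (-1.27 ± 0.33, adjusted p = 0.0416), 1 of 17 structural genes. Of 12 naive genes 4 were higher in XX, and of 7 neural crest genes 3, among them Foxd3 (2.42 ± 0.42). No fibroblast gene of 17 was called. At P13 none of these lists held a called gene. List medians at P7 were 0.79, 0.18 and -0.11 for the transcription factors, neuronal and structural genes, beside 0.00 for all genes.

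In WT ESCs the comparison of XX with XY lines took F121, CM1 and CM2 against V6.5, CM3 and CM7, with the experiment as a covariate. Ncan was at 0.69, 0.73 and 0.88 in F121, CM1 and CM2 (19, 15 and 20 reads), against 4.00, 3.58 and 2.84 in V6.5, CM3 and CM7 (158, 127 and 90 reads). The groups did not overlap, and Ncan was 6.54-fold lower in XX (-2.71 ± 0.34, adjusted p = 0.00337). It was the 1 member called, where 7.19% of 14193 genes were. Within the CM lines alone the difference was -2.41 (adjusted p = 0.00344), and the call held under all 13 alternatives (-3.01 to -2.25, highest adjusted p = 0.0281). F121 and V6.5, 1 line of each sex, allow no test of their own. In that pair sex and organism label cannot be told apart, and V6.5 at 0 h had the chromosome 8 median raised by 0.50. The experiment covariate removes neither.

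Olig2 in the same lines was lower in XX but not called (-2.61 ± 0.91, adjusted p = 0.129). It had 0, 28 and 23 reads in F121, CM1 and CM2, against 120, 51 and 53 in V6.5, CM3 and CM7. Within the CM lines the Olig2 difference was -0.89 (adjusted p = 0.194). Nes (-0.61 ± 0.25, adjusted p = 0.193), Pax6 (-0.42 ± 0.28, adjusted p = 0.412), Tubb3 (-0.21 ± 0.14, adjusted p = 0.392) and Sox1 (-0.14 ± 0.51, adjusted p = 0.9) were not called. Tubb3, called higher in XX iPSCs at P7, was thus at 5.86, 5.48 and 5.67 in XX ESCs against 6.05, 6.02 and 5.58 in XY ESCs. The difference between these 2 comparisons was not tested.

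Genes near neural function went both ways in the WT ESC comparison. Ncam1 was 2.66-fold higher in XX (1.41 ± 0.10, adjusted p = 0.000525), the 1 gene called of 16 structural and matrix genes. Among 17 neuronal genes Syn1 (1.18 ± 0.15), Mapt (0.86 ± 0.13) and Dpysl3 (0.47 ± 0.09) were higher and Crmp1 (-1.28 ± 0.17), a semaphorin signalling protein, was lower. None of 10 neural transcription factors was called. The list medians were -0.05, -0.13 and 0.21, beside -0.01 for all genes. Of 12 naive genes 5 were higher in XX, and 3 of 12 formative genes were lower, such as Dnmt3b (-1.19 ± 0.18). No fibroblast gene of 17 was called, and the part of these genes in the Ncan result was not tested.

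The iPSC lines at P7 were set against the CM ESC lines at P5 with sex as a covariate. Olig2 was higher in all 6 iPSC lines, from 3.58 (LV22) to 4.54 (LV8), against 1.56, 1.06, 2.29 and 2.10 in CM1, CM2, CM3 and CM7. The groups did not overlap, and Olig2 was 5.42-fold higher in iPSCs (2.44 ± 0.18, adjusted p = 6.2e-07). Ncan was at 2.33 (LV22) to 4.89 (LV4) in iPSCs, against 0.73, 0.88, 3.58 and 2.84 in CM1, CM2, CM3 and CM7. It was 4.17-fold higher in iPSCs (2.06 ± 0.41, adjusted p = 0.0016) with overlapping groups, since LV20 (3.55) and LV22 were below CM3. These 2 of 6 members were called where 37.2% of 14106 genes were. Both calls held under all 18 alternatives (2.18 to 2.60 for Olig2 and 1.35 to 2.78 for Ncan), and without LV21 the difference was 2.36 for Olig2 (adjusted p = 2.15e-07) and 1.70 for Ncan (adjusted p = 0.000161). Cell type, organism label and passage cannot be told apart in this comparison.

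Tubb3 gave opposite values in the sexes, 0.64 in XX lines (adjusted p = 0.0164) and -0.38 in XY lines (adjusted p = 0.0838), and 0.13 ± 0.17 over both (adjusted p = 0.586). The difference between the sexes was not itself tested. It shares its iPSC libraries with the comparison of XX and XY at P7 above. Nes (0.54 ± 0.36, adjusted p = 0.259), Pax6 (-0.69 ± 0.36, adjusted p = 0.151) and Sox1 (0.17 ± 0.41, adjusted p = 0.779) were not called. Olig1, the neighbour and paralog of Olig2 (chr16:91269769-91271939 beside chr16:91225550-91228677 for Olig2), was 3.54-fold higher in iPSCs (1.82 ± 0.21, adjusted p = 2.35e-05). It was 1 of 11 neural transcription factors that was higher, and Sox3 was lower (-0.88 ± 0.25, adjusted p = 0.014). Among 17 neuronal genes 4 were higher, such as Neurod1 (2.35 ± 0.27), a basic helix-loop-helix factor, and Elavl3 (1.20 ± 0.19), and 3 lower, such as Nefm (-2.56 ± 0.58). Of 17 structural and matrix genes 4 were higher and 5 lower, among them Synm (1.27 ± 0.17), an intermediate filament gene, and the glutamate transporter Slc1a3 (-1.13 ± 0.24). Fibroblast and feeder genes were lower in iPSCs in 15 of 17 cases, with a summed level of 383 to 576 CPM against 847 to 991 CPM in the CM lines. Formative genes were lower in 7 of 12 cases and higher in 1, and naive pluripotency genes lower in 6 of 12 and higher in 2. Neural crest genes were lower in 3 of 6 cases and primitive endoderm genes in 3 of 8, with none higher. The part of all these genes in the Olig2 and Ncan results was not tested.

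Olig2 separated the libraries by the organism label. Its lowest value in the 14 Mus musculus libraries was 3.47 (91 reads in LV22 at P13), against a highest of 2.29 (51 reads in CM3) in the 10 libraries from crosses with castaneus. Of the 14242 genes that averaged 1 CPM or more, 1.07% lay entirely higher in the musculus libraries in this way and 1.65% entirely lower. The cross libraries themselves split: the CM lines had 23 to 53 Olig2 reads, whereas F121 and the Dusp9+/- clones had 0 or 1 read in each of 6 libraries. Olig1 repeated that split of the cross libraries, with 87 to 166 reads in the CM lines against 1 to 4 in F121 and the clones. It did not separate the organism labels. The musculus libraries had 118 to 593 Olig1 reads, with a lowest level of 3.45 (V6.5 at 24 h) against a highest of 3.96 (CM3) in the cross libraries. The musculus libraries are the iPSC lines and V6.5, so that organism, line and culture cannot be told apart.

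**Figure D4:**
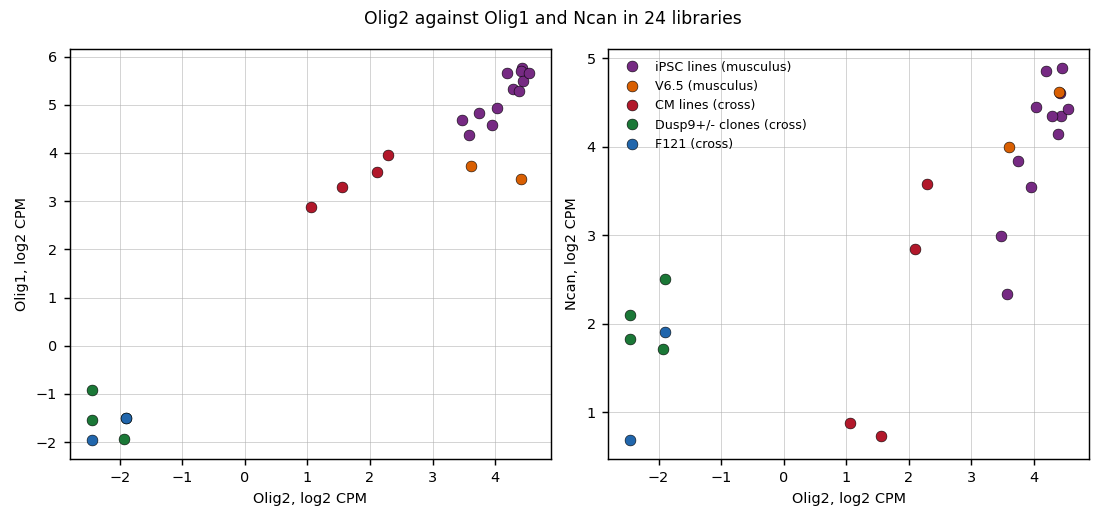
Olig2 in log2 CPM (x axis) is plotted against Olig1 and against Ncan in log2 CPM (y axes) for 24 libraries, coloured by line family. F121 and the clones lie at the low end of both Olig genes, the CM lines between and the iPSC lines at the high end, while V6.5 lies below the iPSC lines in Olig1 at a like Olig2 level.

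The order of levels over the 12 groups of line, time and passage differed between members. Sox1 was highest in V6.5 at 24 h (4.50), then in F121 at 24 h (2.17) and V6.5 at 0 h (2.00), and from the XX iPSCs at P7 downwards each group overlapped the next. Pax6 was highest in the XO iPSCs at P13 (3.76 ± 0.28, SD, n = 3), whose lowest library was level with V6.5 at 24 h (3.45), then in the XY iPSCs at P13 (3.20 ± 0.44, SD, n = 3). Tubb3 was highest in the XO iPSCs at P13 (6.74 ± 0.06, SD, n = 3) and lowest in F121 at 24 h (4.92). Ncan was highest in V6.5 at 24 h (4.61) and lowest in F121 at 0 h (0.69), with the XX CM lines (0.80 ± 0.10, SD, n = 2) next to it. Nes overlapped between neighbouring groups from the XY iPSCs at P7 (6.81 ± 0.38, SD, n = 3) down to the clones at 0 h (5.69 ± 0.41, SD, n = 2), and was lowest in F121 at 24 h (4.83).

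Over the 24 libraries the members did not follow a common pattern. The highest correlation between members was that of Olig2 with Ncan (Pearson r = 0.80), then Pax6 with Tubb3 (r = 0.66), and the lowest that of Sox1 with Nes (r = -0.37). These values are descriptions over libraries that share lines and experiments. The genes like Olig2 included Olig1 (r = 0.98) and Ptges3 (r = 0.95), a cochaperone of Hsp90. Sox1 was most like Ythdf3 (r = 0.85), a reader of N6-methyladenosine in RNA, Basp1 (r = 0.83), a membrane protein of growing axons, and the kinase gene Hipk1 (r = 0.82). Pax6 was most like Ina (r = 0.82), the RNA polymerase III subunit Polr3f (r = 0.80), which also lies on chromosome 2, and Lrmp (r = 0.79). Nes was most like Ppp4r4 (r = 0.88), the Wnt ligand gene Wnt3 (r = 0.88) and Moxd1 (r = 0.87). Ncan was most like C2cd3 (r = 0.96) and Ccdc40 (r = 0.94), both genes of cilia, and the transporter gene Slc26a10 (r = 0.92). Tubb3 was most like Tpm3 (r = 0.89), a tropomyosin, the splicing factor Srsf2 (r = 0.88) and 1810032O08Rik (r = 0.86).

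Of the other beta-tubulin genes 1, Tubb4b, was called in a comparison that called Tubb3. Tubb2b fell at 24 h without LIF (-0.79 ± 0.10, adjusted p = 0.00161), where Tubb3 was not called, and was higher in XX WT ESCs (0.58 ± 0.08, adjusted p = 0.00587). Tubb4a was higher in the Dusp9+/- clones than in F121 at 24 h (1.56 ± 0.26, adjusted p = 0.0472). Tubb4b rose in the female iPSC lines at P13 by 0.24 ± 0.07 (adjusted p = 0.047), and none of 6 was called in the male lines. Tubb5 was lower in iPSCs than in CM ESCs (-0.22 ± 0.05, adjusted p = 0.00546). At P7 none of the 6 was called between XX and XY, with a median of 0.00, beside the Tubb3 difference of 0.79. Reads shared by near-identical family members could be split by the counting, so these values carry that uncertainty.

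**Figure D5:**
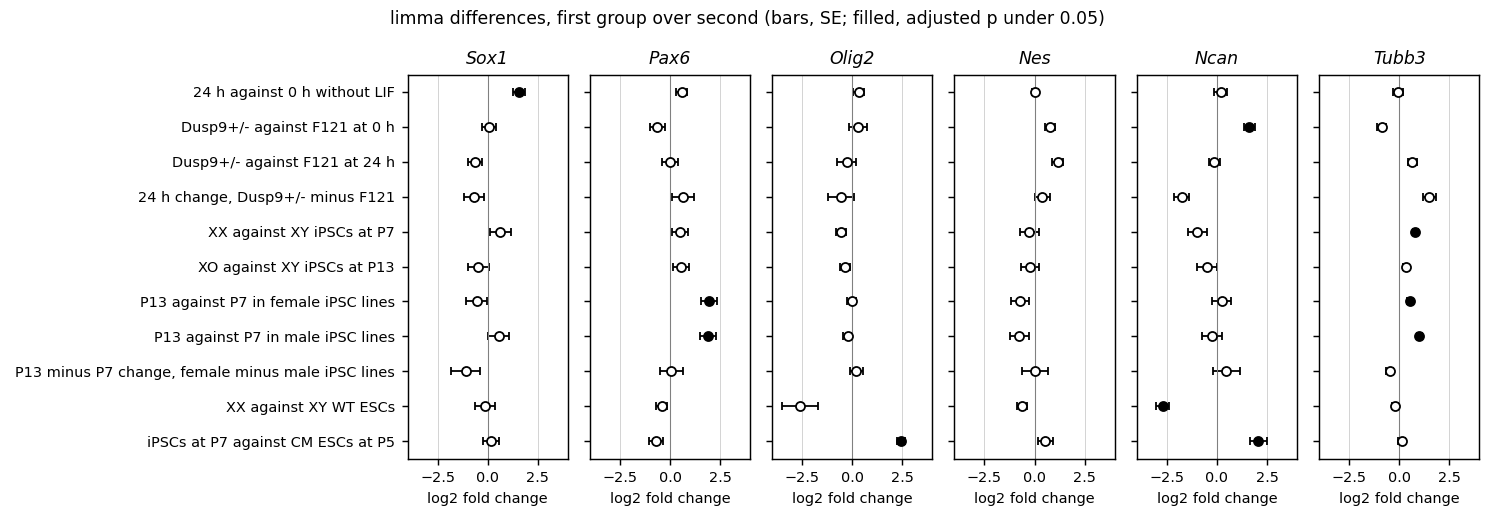
Limma log2 fold changes of the first-named group over the second (x axis) are plotted for each gene (panels) in 11 comparisons (y axis), with bars for SE and filled points for adjusted p under 0.05. Each gene but Nes is called somewhere, Sox1 after LIF withdrawal, Pax6 and Tubb3 with passage and Tubb3 in XX iPSCs. Olig2 and Ncan are called between ESC and iPSC lines, and Ncan also between XX and XY WT ESCs. A further Ncan call is that between the Dusp9+/- clones and F121 at 0 h.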

How the data were processed

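RNA was read in 32 of the 52 samples, and the table has 24 columns, 1 per line, passage and time. The withdrawal samples include 8 technical repeats, and whether these were combined is not given in the sources used here. The 20 chromatin accessibility samples were not analysed here. TRIzol RNA went into a stranded mRNA kit and was read single-end, per the labels. STAR 2.5.3a, featureCounts, edgeR, GRCm38 and mm10 are named in the submitters' processing notes. The authors deposited log2 CPM values, written with decimal commas, with an offset of 0.183 CPM. Whole reads were recovered from their equal steps (100.0% within 0.01 read). The log2 values were fitted as deposited with limma 3.58.1 (R 4.3.3, lmFit, eBayes with trend) for genes averaging 1 CPM or more in the fit, and p was adjusted by Benjamini-Hochberg over all of them. Scripts were tested on simulated data. Counting intervals (exact binomial, 95%) come from recovered reads. Named genes were all members, up to 4 called genes per neural list and comparison (largest change, at least 4 CPM), up to 2 per other list, and the 3 genes most correlated with each member, of which 1 is not reported here. Each line was read at both passages or times, so the line pairs its libraries. The main 24 h fit adjusted for genotype (F121, V6.5 or Dusp9+/-) and the main passage fits compared group means without pairing. The line as a block was an alternative to both. Deviations of same-line libraries correlated across genes at -0.04 to 0.11 in iPSC lines and -0.36 in the clones. Promoters and positions are RefSeq's (GRCm38.p6), and all 6 members matched. The members, the 13 gene lists and the tests were chosen with earlier results of these data known.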

Additional observations from a re-analysis of the deposited data

Results flagged for a closer look

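Of 36 sets of 4 or 6 libraries tested for a library far from the others, 6 held one. Chance would give about 1 in 20 if the libraries of a set were alike and the sets independent. The sets mixed lines and sexes, some also organism labels, and shared libraries, so that rate does not apply to them. V6.5 stood apart at 24 h in Pax6 (3.45 log2 CPM, next library 2.19), in Olig2 (4.41, next -1.90) and in Ncan (4.61, next 1.90), and at 0 h in Olig2 (3.61, next -1.90). Its chromosome 8 median was raised at both times, and the part of that in the Ncan value was not tested. F121 was the lowest Tubb3 library at 24 h (4.92, next 5.56). LV8 was the lowest Pax6 library of the iPSCs at P7 (0.18 on 8 reads, next 1.55). Between the Dusp9+/- clones and F121 the 24 h change had opposite signs for 3 genes, and the share of all genes with such signs was not computed. For Pax6 the counting intervals of the ratio in F121 (0.643 to 1.42) and clone 1 (0.701 to 1.62) included no change. So did that of Ncan in clone 2 (0.524 to 1.26). The difference, clones minus F121, was 0.63 for Pax6 (adjusted p = 0.681), -1.75 for Ncan (adjusted p = 0.234) and 1.51 for Tubb3 (adjusted p = 0.233) in limma's interaction test, and none passed.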

How the results depend on the processing

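Of 888 member values under 39 alternative settings, 830 kept their direction and their side of the threshold, 37 changed sign, 13 passed newly and 8 no longer passed; none that changed sign had been called. The cause was not tested for any of these. The edgeR and DESeq2 fits were not run, since the table is not of counts, and limma voom on recovered reads was added in their place after seeing the data, as were the crossed clone numbers. Reads per library limit Sox1, Olig2 and Pax6 most.

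With no filter on low values 200 genes and 0 members were called for Dusp9+/- against F121 at 0 h, 0 genes for the same groups at 24 h and 440 for XX against XY at P7. Voom called 16 genes for Dusp9+/- against F121 at 24 h and gave 0.020 for Olig2 in the female passage comparison. Centring on library medians, or values relative to the same chromosome, gave 2 members for Dusp9+/- against F121 at 0 h, and Pax6 at 24 h was then -0.033 and -0.11. Relative to the same chromosome 1 member was called for P13 against P7 in female lines. With only the libraries compared 428 genes were called for XX against XY at P7 and 436 for P13 against P7 in female lines. Leaving out both LV21 (P7) and LV22 (P13) gave 1818 genes and 4 members for XX against XY at P7, 364 genes for the female minus male change, and 0.31 for Olig2 in the female passage comparison. CM lines alone gave 1690 genes for XX against XY WT ESCs, and 0.55 for Sox1. XX lines alone gave 2350 genes for iPSCs against CM ESCs, and XY lines alone -0.38 for Tubb3.

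With the replicate block (line), 11 genes were called for the female minus male change, and the pairing changed no member call. With the clone numbers crossed, the block called 4493 genes and 1 member at 24 h.

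Where a group was left with 1 library, that library was assumed to vary like the others in the fit. Leaving out 1 library or line in turn gave 1625 to 3486 genes called at 24 h against 0 h, 1284 to 1953 for Dusp9+/- against F121 at 0 h, 1 to 408 at 24 h and 0 to 24 for their difference in change. It gave 44 to 1727 for XX against XY at P7 (44 without LV22, 1727 without LV21), 174 to 2079 and 429 to 2198 for P13 against P7 in female and male lines, 0 to 145 for their difference and 208 to 1682 for XX against XY WT ESCs. Members called were 1 to 3 for Dusp9+/- against F121 at 0 h, 0 to 1 for the difference in change, 1 to 3 for XX against XY at P7, 0 to 2 for female passage and 1 to 2 for male passage. At 24 h against 0 h Nes ran over -0.21 to 0.16, Ncan over -0.15 to 0.52 and Tubb3 over -0.36 to 0.23. For Dusp9+/- against F121, Sox1 at 0 h ran over -0.19 to 0.31 and Pax6 at 24 h over -0.035 to 0.048. In XX against XY at P7 Nes ran over -0.96 to 0.10 and Pax6 over -0.068 to 0.81, and in XO against XY at P13 Nes over -0.54 to 0.070. In female passage Olig2 ran over -0.30 to 0.17 and Ncan over -0.39 to 0.87. In the female minus male change Pax6 ran over -0.25 to 0.63, Nes over -0.33 to 0.74, Ncan over -0.15 to 1.11 and Olig2 over -0.066 to 0.41. Sox1 ran over -0.48 to 0.55 in XX against XY WT ESCs and over -0.14 to 0.38 in iPSCs against CM ESCs, where Tubb3 ran over -0.024 to 0.33.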

Other observations

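Genes of other lineages changed beside the neural genes. Of 6 tested primitive endoderm genes 3 fell at 24 h without LIF, among them the laminin gene Lama1 (-2.19 ± 0.17, adjusted p = 0.000432 in limma) and the receptor gene Pdgfra (-2.11 ± 0.36, adjusted p = 0.00484). Lama1 was also lower in the Dusp9+/- clones than in F121 at 0 h (-1.31 ± 0.11, adjusted p = 0.0136). Of 4 skeletal muscle genes Des, an intermediate filament gene like Nes, fell at 24 h (-0.80 ± 0.19, adjusted p = 0.0167). Des was higher in iPSCs at P7 than in CM ESCs (1.24 ± 0.27, adjusted p = 0.00309) and lower in XX than in XY iPSCs at P7 (-1.30 ± 0.32, adjusted p = 0.034). None of 5 endothelial genes was called at 24 h, and Tek and Pecam1 were higher in XX than in XY WT ESCs (0.84 ± 0.20 and 0.71 ± 0.15).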
